A study of Rattus norvegicus with 10 samples.

Results

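Collagen chain genes encode the polypeptides that wind into the helices of the extracellular matrix. They were taken as every gene whose symbol is Col, a collagen type number, the letter a and a chain number. In the array's annotation 41 such genes had a probe set that named no other gene. They were read by 58 probe sets, of 31042 probe sets and 14217 named genes in all. By class, 11 genes (19 probe sets) encode fibrillar chains, 5 (7 probe sets) chains of the basement membrane collagen type IV, and 25 (32 probe sets) other collagens.

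The RNA came from normoxic rat A7r5 cells, a line labelled as vascular smooth muscle, grown in DMEM with 10% serum to about 50% confluence. The cells had been stably transfected, and there were 5 groups of 2 arrays. The control carried empty vector, although its titles call its expression native. The others carried BMPR2, which binds bone morphogenetic proteins as their type II receptor, as wild type or with 1 of 3 mutations: 2579-2580delT in the cytoplasmic tail (CD mutant), C994T in the kinase domain (KD mutant), or T354G in the ligand-binding part outside the cell (ED mutant). The labels do not say which promoter drove the receptor or whether each line was a clone or a pool. They also do not state that paired arrays are independent cultures, and the p-values therefore cover array-to-array spread that can be technical. The comparisons asked how the receptor and each class of mutation changed expression.

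Collagen chains assemble in the endoplasmic reticulum, where their prolines and lysines are hydroxylated and chaperones hold the helix. Fibrillar procollagens are secreted, trimmed at their ends, packed into fibrils and cross-linked by lysyl oxidases, and they give the arterial wall its tensile strength. Type IV chains form the sheet of the basement membrane that surrounds each smooth muscle cell, while other collagens decorate fibrils, form beaded filaments or span the cell membrane. BMP and TGF-beta signals are known regulators of collagen genes in vascular cells.

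The authors deposited their values as RMA summaries in log2, and differences keep that scale. Tests were run on probe sets at or above log2 4.82 on 2 or more arrays, a changed probe set is one with adjusted p under 0.05 by limma, and SE is the standard error of a log2 difference. Of the 58 collagen probe sets 44 were tested. Of these, 7 passed only through the KD mutant arrays, where they were bright, so that they had to differ: both of Col1a2, both of Col5a2, the dimmer ones of Col1a1 and Col4a6, and that of Col4a5. The other 14 stayed below the level on all 10 arrays. A group mean under that level has no exact size, so a fold change set against it is approximate.

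The 2 KD mutant arrays stood apart from the other 8. Their correlation with those 8 across all probe sets was 0.709 to 0.719, against 0.992 to 0.996 among the 8, and across the collagen probe sets it was 0.185 to 0.247 against 0.988 to 0.993. Their medians were 4.94 and 4.95, against 5.32 to 5.36. Hybridization controls averaged 10.41 and 10.47 there against 11.16 to 11.35, and poly-A controls 6.22 and 6.76 against 7.04 to 8.04. Of 12 smooth muscle markers 7 were higher on both KD mutant arrays than on all other arrays and 2 were lower, with summed linear values of 9595 to 10830 against 3085 to 3609. The marker Cnn1 was under the filter level on all 8 other arrays and read 7.97 and 7.76 on the KD mutant arrays. Lmod1 and Myocd, the latter counted among the 7 higher, were under that level on all 10. Tagln stood on the 8 at 4.82 to 5.19 against 11.15 and 11.51. The 2 lower were Smtn, at 8.05 and 8.62 against 10.33 to 10.48, and Mylk, at 7.24 and 7.22 against 7.64 to 7.96. Myh11 and Synpo2 lay within the range of the 8. Of 11 epithelial markers 9 were lower on both KD mutant arrays than on all others, with sums of 1251 to 1287 against 4427 to 6711. Epcam, counted among the 9, was under the filter level on all 10 arrays. The keratin gene Krt18 read 9.28 and 9.34 there against 11.26 to 11.82. Of 8 fibroblast markers Postn and Thy1 were higher and 6 were lower by the same rule, with sums of 1217 to 1428 against 188 to 233. Of the 6, Pdgfra, Fap and Tcf21 reached the filter level on other arrays. Dcn, Lum and Pdpn were under it on all 10 arrays. By the same rule 5 of 6 skeletal muscle markers and 5 of 7 endothelial markers were lower, and none was higher. Of 4 bone markers 3 were lower and 1 was higher. Of the 7 endothelial markers 6 were under the filter level on all 10 arrays. Over all tested probe sets 89.6% changed against wild type in limma, 34.5% higher and 55.1% lower, so these marker counts say little alone. The share of all probe sets that lay beyond the other 8 arrays was not counted. The part of these differences in the KD mutant results below was not tested. With 2 arrays under that label the mutation and everything else that sets these arrays apart cannot be told apart.

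On the 8 arrays other than the KD mutant, the collagen probe sets varied about as little as all probe sets did. The range of a collagen probe set over those 8 arrays had a median of 0.361 and reached at most 0.821, beside a median of 0.380 over all probe sets. None of the 58 ranged by more than 1, and few of all probe sets did (162 of 31042). Of the 58, 14 were under the filter level on all 10 arrays and 7 reached it only on the KD mutant arrays. A small range over the 8 says little of these. The brightest collagen signals there included Col18a1, whose C-terminal fragment is endostatin, at 9.73 to 9.90, and Col4a1 at 8.72 to 9.11. Col1a2, a chain of type I collagen, stood at 3.56 to 4.18.

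**Figure D1:**
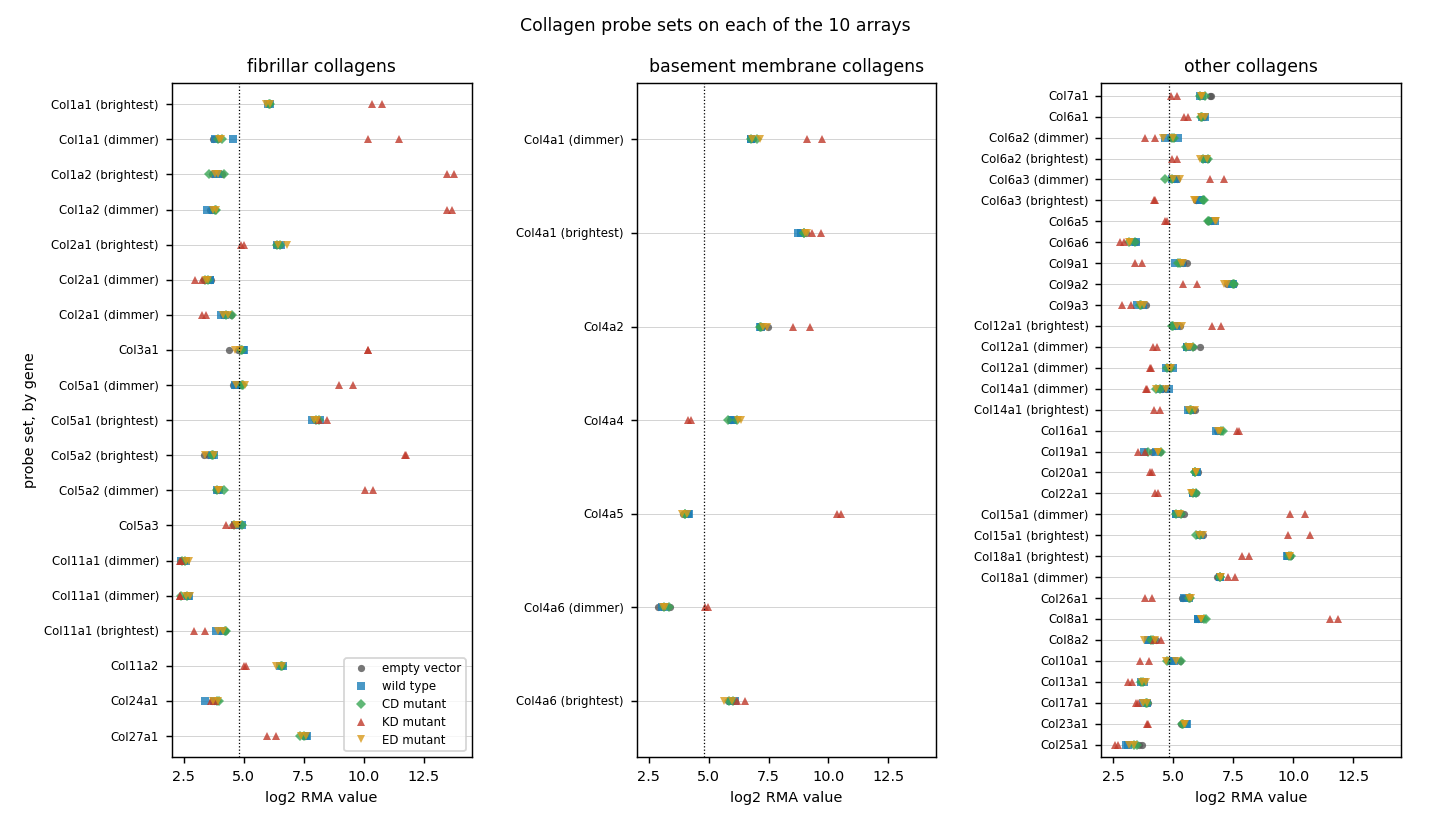
Log2 RMA value (x axis) of each of the 58 collagen probe sets (y axis) on each of the 10 arrays, in panels by collagen class. Each point is 1 array, coloured by group, and the dotted line marks the filter level of log2 4.82. The 4 groups other than the KD mutant overlie each other within 0.821 for every probe set, while the KD mutant arrays lie to the right for Col1a2, Col5a2, Col4a5 and Col8a1 and to the left for Col6a5 and Col9a2.

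In KD mutant against wild type, 42 of the 58 collagen probe sets changed (42 of the 44 tested), 20 higher and 22 lower. Over all tested probe sets 89.6% changed in this comparison, 34.5% higher and 55.1% lower, so that a call here says little about collagens, and the sizes are given gene by gene. The median difference of the collagen probe sets was −0.42, beside −0.56 over all probe sets. The fibrillar class had 8 higher and 4 lower of 19 (median 0.14), the basement membrane class 5 higher and 1 lower of 7 (median 1.70), and the other collagens 7 higher and 17 lower of 32 (median −0.77). Of the rises, 5 fibrillar and 2 basement membrane ones passed the filter only through the KD mutant arrays and so had to differ. None of the other collagens passed in that way. The difference between the classes was not tested. After quantile normalization or median centring the counts were 8 or 9 higher and 4 or 3 lower for fibrillar, 4 or 6 higher and 1 lower for basement membrane, and 6 or 7 higher and 15 or 17 lower for other collagens. With no filter, all 58 were tested and 53 changed, 21 higher and 32 lower, where 86.4% of all probe sets did.

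Differences of more than 4 on the log2 scale, a level chosen after the values were seen, were found for 12 collagen probe sets of 8 genes, and for 901 of all probe sets (2.9%). The 8 genes were Col1a1, Col1a2, Col3a1, Col5a1, Col5a2, Col4a5, Col8a1 and Col15a1. The probe sets of Col1a2, Col5a2 and Col4a5 and the dimmer one of Col1a1 were under the filter level on all 8 other arrays. Their rises therefore have no exact size. Col5a1 is among the 8 by its dimmer probe set alone, as the brighter differed by 0.31. No collagen probe set was lower by more than 4, as 14 of all were (0.0451%). The falls of collagen genes were smaller, the deepest being 2.02. Many of them, such as those of Col6a5, Col4a4, Col9a1 and Col20a1, ended under the filter level on the KD mutant arrays, where a fall has no exact size. The filter let each of these 4 in through the 8 other arrays alone, where it was high.

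**Figure D2:**
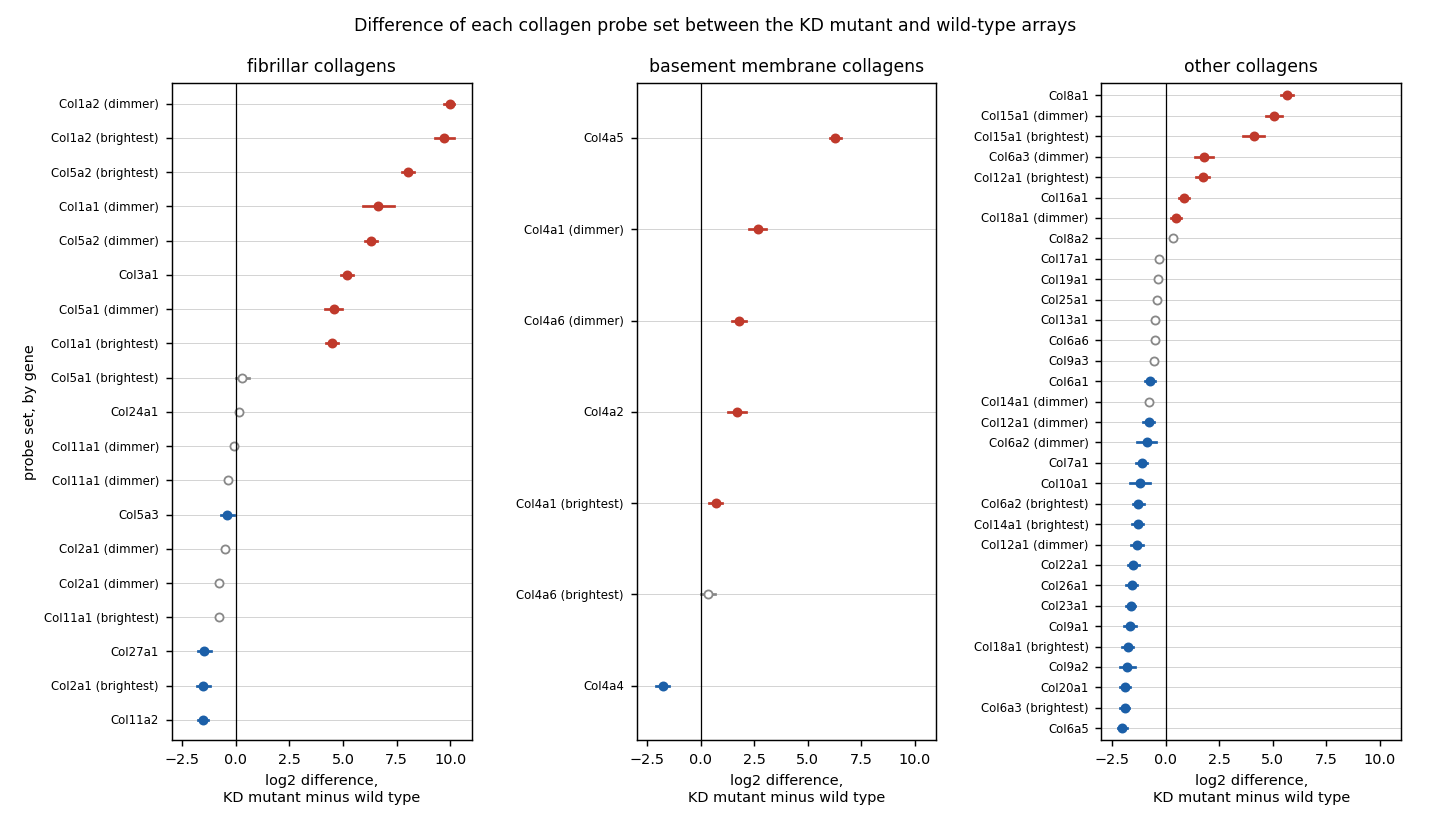
Log2 difference, KD mutant minus wild type (x axis), of each collagen probe set (y axis), in panels by class and sorted by size. Filled points changed (red higher, blue lower), open points did not or were below the filter, and bars are 95% intervals from limma. The rises run up to 9.97 for Col1a2, and no fall passes 2.02.

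Among the fibrillar chains, those of types I, III and V were high on the KD mutant arrays. Type I collagen, the main fibril of the arterial adventitia and media, is built from the Col1a1 and Col1a2 chains. Col1a2 by its brighter probe set read 3.67 and 4.11 with empty vector, 3.93 and 3.84 in wild type, 3.56 and 4.18 with the CD mutant, 3.80 and 3.92 with the ED mutant, and 13.46 and 13.78 in the KD mutant. The KD mutant arrays were far above all others, and the other 4 groups overlapped. Against wild type the rise was 9.74 (SE 0.198, adjusted p = 1.73e-12), about 853-fold. The second probe set of the gene rose by 9.97 (SE 0.117, adjusted p = 1.37e-13), with 13.49 and 13.68 on the KD mutant arrays and 3.49 to 3.86 on the rest. Both Col1a2 probe sets passed the filter only through the KD mutant arrays and had to differ, so their p-values add no support.

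Since Col1a2 had the largest rise of the collagen genes, the 250 bases before its RefSeq start are shown, at chr4:33518307-33518556 of GRCr8, plus strand. Capitals mark CCAAT (the CCAAT box), TATAAA (the TATA box) and CAGAC (a Smad element), each read on either strand, so that ATTGG and GTCTG are the reverse readings of CCAAT and CAGAC.
Col1a2: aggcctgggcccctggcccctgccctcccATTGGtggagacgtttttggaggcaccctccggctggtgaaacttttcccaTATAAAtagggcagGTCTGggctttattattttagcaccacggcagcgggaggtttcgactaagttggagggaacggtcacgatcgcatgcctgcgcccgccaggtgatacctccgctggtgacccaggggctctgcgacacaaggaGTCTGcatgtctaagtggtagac
The CCAAT match starts 221 bases before the start, TATAAA 170, and the CAGAC matches 156 and 23. Here and below the names of elements mean a sequence match alone, and whether a match acts at the start was not tested. Promoter windows of 300 bases (250 before and 50 from the start) were found for 32 of the 41 collagen genes in the RefSeq table. Searched on both strands, CCAAT was in 9 of the 32 against 37.5% of all 33469 windows, TATAAA in 4 against 14.2%, and CAGAC in 14 against 50.1%. The GC box GGGCGG was in 18 (56.2%) against 33.1%, and the GC-rich Smad element GGCGCC in 4 (12.5%) against 3688 of all windows.

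Col1a1, the partner of Col1a2, read 10.36 and 10.75 on the KD mutant arrays, 6.11 and 6.03 in wild type, and 5.94 to 6.11 over the 8 other arrays. The groups did not overlap, and the rise was 4.48 (SE 0.128, adjusted p = 1.96e-11). Its second probe set read 10.18 and 11.48 against 3.73 to 4.55, a rise of 6.65 (SE 0.331, adjusted p = 2.42e-09). The 2 KD mutant arrays lay further apart by this probe set than by the first. This second probe set passed the filter only through those arrays, so it had to differ.

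Col3a1, the chain of the elastic type III fibrils of vessels, read 10.19 on both KD mutant arrays, 4.98 and 5.03 in wild type, and 4.41 to 5.03 over the other 8. It rose by 5.18 (SE 0.127, adjusted p = 6.46e-12). Col5a2, a chain of type V collagen that sits inside type I fibrils and limits their width, read 11.72 and 11.77 against 3.68 and 3.77 in wild type. It rose by 8.02 (SE 0.127, adjusted p = 4.63e-13), and by 6.31 with its other probe set. Neither gene's KD mutant arrays overlapped any other array. Both Col5a2 probe sets passed the filter only through the KD mutant arrays, so they had to differ.

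Col5a1, which assembles with Col5a2, depended on the probe set. The dimmer one read 8.96 and 9.56 on the KD mutant arrays against 4.54 to 5.05 on the others and rose by 4.56 (SE 0.187, adjusted p = 4.29e-10). The brighter one read 8.14 and 8.49 against 7.84 and 8.17 in wild type, overlapping it, and differed by 0.31 (adjusted p = 0.0592). That call went both ways: after quantile normalization the difference passed as lower, at −0.34 (adjusted p = 0.0398), and it passed as higher at 0.70 after median centring, at 0.47 without wild type replicate 2 and at 0.48 without KD mutant replicate 1.

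The fibrillar chains known from cartilage moved the other way or stayed dim. Col11a2, a chain of type XI collagen, fell from 6.65 and 6.53 in wild type to 5.09 and 5.02, by 1.54 (SE 0.109, adjusted p = 5.74e-08). Col2a1, the main cartilage chain, fell from 6.40 and 6.57 to 4.91 and 5.02, by 1.52 (adjusted p = 3.26e-07). Its other 2 probe sets were below the filter level on all arrays. Col27a1, a fibrillar chain of developing cartilage, fell from 7.62 and 7.64 to 6.36 and 5.96, by 1.47 (adjusted p = 5.60e-07). In these 3 genes the KD mutant arrays lay below every other array.

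Col5a3, another type V chain, read 4.51 and 4.27 on the KD mutant arrays and 4.94 and 4.66 in wild type. It passed the filter through just 2 arrays, wild type replicate 1 (4.94) and CD mutant replicate 2 (4.93). It fell by 0.41 (adjusted p = 0.016), a call lost without wild type replicate 1 (−0.27) or KD mutant replicate 2 (−0.29). The difference was −0.01 after median centring and 0.12 after quantile normalization. Col11a1 and Col24a1 were not tested, with all values from 2.35 to 4.26 and from 3.40 to 3.98. Among cartilage markers, 3 of 4 measured were lower on the KD mutant arrays than on all others, with sums of 96.1 to 106 against 206 to 229, and their part in the values of the cartilage chains was not tested.

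Basement membrane chains also split. Col4a5, a chain of the type IV network found around smooth muscle, read 3.92 and 4.15 with empty vector, 4.15 and 4.19 in wild type, 4.02 and 4.01 with the CD mutant, 4.12 and 3.88 with the ED mutant, and 10.51 and 10.37 in the KD mutant. It was bright on the KD mutant arrays and under the filter level on all others. The rise against wild type was 6.27 (SE 0.119, adjusted p = 1.28e-12). Col4a5 passed the filter only through the KD mutant arrays, as did the dimmer probe set of Col4a6, so both had to differ. Col4a6, which shares a network with Col4a5, read 4.99 and 4.87 against 2.89 to 3.41 by its dimmer probe set, a rise of 1.80 (adjusted p = 2.47e-07). Its brighter probe set read 6.17 and 6.50 against 6.09 and 5.92 in wild type, a difference of 0.33 (adjusted p = 0.0551) that passed at 0.49 without KD mutant replicate 1.

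Col4a1 and Col4a2, the chains of the common basement membrane network, were well above the filter level on all 10 arrays. Col4a1 by its brighter probe set read 9.08 and 8.92 with empty vector, 8.86 and 8.72 in wild type, 8.97 and 8.99 with the CD mutant, 9.11 and 9.02 with the ED mutant, and 9.30 and 9.67 in the KD mutant. The KD mutant arrays were the highest, by a small margin, and the other groups lay close together. The rise of 0.69 against wild type (SE 0.130, adjusted p = 0.00029) shrank to 0.13 and lost its call under quantile normalization. The second probe set read 9.11 and 9.72 against 6.75 to 7.14 and rose by 2.65 (SE 0.177, adjusted p = 3.40e-08).

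Col4a2 read 8.52 and 9.24 on the KD mutant arrays and 7.20 and 7.16 in wild type. It rose by 1.70 (SE 0.186, adjusted p = 2.66e-06), and the 2 KD mutant arrays lay above all 8 others. Col4a4, known from the specialised basement membranes of the kidney, was the single chain of the 5 measured that fell. It read 4.16 and 4.29 against 5.97 and 6.04 in wild type and 5.80 to 6.36 over the other 8, a fall by 1.78 (SE 0.129, adjusted p = 6.72e-08).

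The type IV genes lie in head-to-head pairs, so their upstream windows are shown for a member of each pair that rose: Col4a1 at chr16:84885347-84885596 and Col4a5 at chrX:109907109-109907358, both GRCr8, plus strand. Capitals mark the CCAAT box, the GC box and the GC-rich Smad element on either strand, so that ATTGG is a CCAAT box in reverse and CCGCCC a GC box in reverse.
Col4a1: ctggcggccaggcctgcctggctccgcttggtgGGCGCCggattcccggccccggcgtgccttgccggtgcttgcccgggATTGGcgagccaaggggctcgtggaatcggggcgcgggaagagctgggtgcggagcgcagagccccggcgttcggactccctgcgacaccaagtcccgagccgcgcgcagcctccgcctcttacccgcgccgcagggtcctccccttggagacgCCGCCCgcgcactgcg
Col4a5: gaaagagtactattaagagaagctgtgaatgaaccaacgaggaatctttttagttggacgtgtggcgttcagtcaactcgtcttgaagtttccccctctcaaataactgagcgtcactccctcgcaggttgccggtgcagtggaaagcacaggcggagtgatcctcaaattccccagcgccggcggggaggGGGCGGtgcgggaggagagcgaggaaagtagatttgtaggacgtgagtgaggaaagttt
The starts of Col4a1 and Col4a2 lie 77 bases apart on opposite strands, and their 300-base windows share 176 bases. Those of Col4a5 and Col4a6 lie 1415 bases apart and share none. The Col4a5 stretch holds 1 of the motifs searched, a GGGCGG 59 bases before the start. The window of Col4a4 held CAGAC at 64 bases before and 19 after its start, and no other motif searched.

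Among the other collagens, 3 genes were higher by every probe set that was tested. Col8a1, a chain of the short-chain network of vessel walls that is made by smooth muscle and endothelium, read 6.04 and 6.14 with empty vector, 6.04 and 6.03 in wild type, 6.35 and 6.26 with the CD mutant, 6.14 and 6.14 with the ED mutant, and 11.52 and 11.87 in the KD mutant. The KD mutant arrays stood far above the rest. The rise was 5.66 (SE 0.121, adjusted p = 2.38e-12). Its partner chain Col8a2 stayed under the filter level on all arrays, at 3.78 to 4.26 over the 8 and 4.50 and 4.18 on the KD mutant arrays.

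Col8a1 was the largest rise outside the fibrillar and type IV classes, and its upstream window lies at chr11:56246532-56246781 of GRCr8, plus strand. Capitals mark CAGAC and GGGCGG, the latter in its reverse reading CCGCCC.
Col8a1: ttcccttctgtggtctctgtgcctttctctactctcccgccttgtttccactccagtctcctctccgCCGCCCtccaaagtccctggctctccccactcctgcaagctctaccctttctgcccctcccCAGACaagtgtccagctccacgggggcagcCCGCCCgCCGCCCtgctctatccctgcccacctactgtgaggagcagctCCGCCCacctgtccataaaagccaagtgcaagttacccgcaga
It holds 4 GC boxes, 183, 92, 85 and 43 bases before the start, and 1 CAGAC at 122. Of genes that fell, the window of Col11a2, the deepest fall among the fibrillar chains, held 3 GGGCGG, and those of Col6a5, the deepest fall of all collagens, held CCAAT alone of the motifs searched.

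Col15a1, which encodes a chondroitin sulfate proteoglycan next to basement membranes, read 9.77 and 10.71 on the KD mutant arrays and 6.15 and 6.10 in wild type. It rose by 4.11 (SE 0.226, adjusted p = 5.95e-09), and by 5.06 with its other probe set. Col16a1, a minor fibril-associated chain, read 7.66 and 7.73 against 6.90 and 6.79 and rose by 0.85 (adjusted p = 6.89e-06). The KD mutant arrays of both genes lay above all others.

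The beaded-filament collagen type VI, built from Col6a1, Col6a2 and a longer chain, was lower by most of its probe sets. Col6a1 read 5.42 and 5.59 on the KD mutant arrays and 6.17 and 6.30 in wild type, a fall by 0.73 (adjusted p = 4.33e-05). Col6a2 read 5.13 and 4.96 against 6.30 and 6.34, a fall by 1.27 (adjusted p = 8.86e-07), and fell by 0.89 with its other probe set, a call lost after quantile normalization (−0.34). Col6a5, a chain that can take the place of Col6a3, fell from 6.66 and 6.72 to 4.72 and 4.64. This fall by 2.02 (SE 0.0975, adjusted p = 1.86e-09) was the deepest of all collagen probe sets. Col6a6 stayed under the filter level.

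In Col6a3, Col12a1 and Col18a1 the probe sets of a gene gave opposite calls. The brighter probe set of Col6a3, the long chain of type VI, read 5.92 and 5.93 with empty vector, 6.10 and 6.13 in wild type, 6.24 and 6.26 with the CD mutant, 5.90 and 5.85 with the ED mutant, and 4.23 and 4.17 in the KD mutant. It fell by 1.92 (adjusted p = 2.14e-09). The other read 6.51 and 7.12 against 4.63 to 5.28 and rose by 1.79 (adjusted p = 1.64e-06).

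Col12a1, which coats type I fibrils, rose by 1.73 by the probe set with the highest mean, at 6.59 and 6.99 against 5.02 and 5.11 in wild type (adjusted p = 1.56e-07). Its other 2 fell by 1.34 and 0.79. Col18a1 fell by 1.78 with its brighter probe set, from 9.73 and 9.79 to 7.84 and 8.13 (adjusted p = 2.04e-08), and rose by 0.49 with the dimmer, from 6.95 and 6.94 to 7.29 and 7.57 (adjusted p = 0.00115). That smaller rise became −0.02 after quantile normalization. No direction is given for these 3 genes. Probe sets of a gene can read different transcript ends, and which of them reads these transcripts was not tested. Of 14 collagen genes with several probe sets, the other 11 had differences of the same sign throughout.

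**Figure D3:**
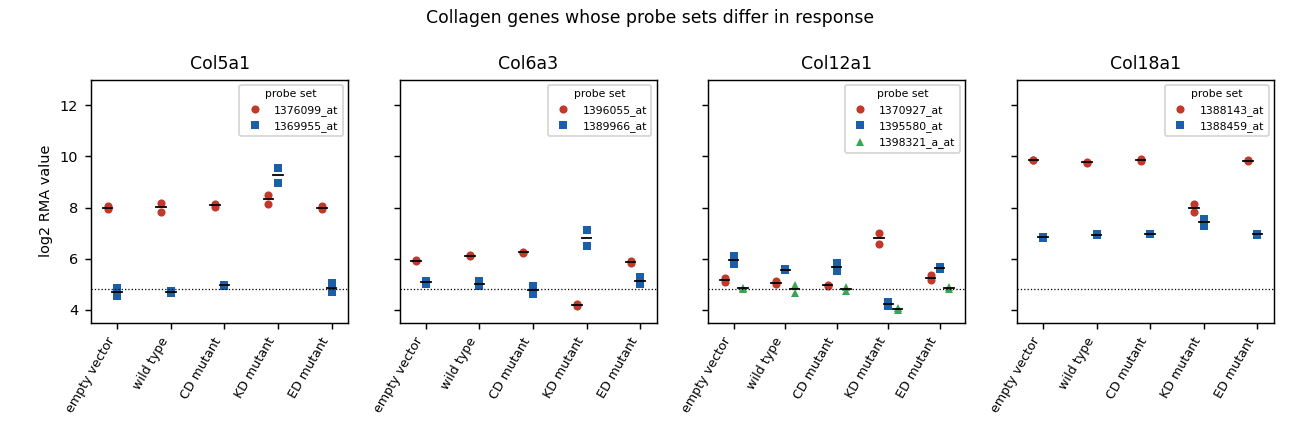
Log2 RMA value (y axis) in the 5 groups (x axis) for the probe sets of Col5a1, Col6a3, Col12a1 and Col18a1. Points are arrays, black bars group means, colours and shapes probe sets, and the dotted line is the filter level. The 2 probe sets of Col6a3 part in the KD mutant, at 4.17 to 4.23 and 6.51 to 7.12.

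The remaining collagens were lower or dim on the KD mutant arrays. Of the fibril-associated chains, Col9a2, which with Col9a1 and Col9a3 decorates type II fibrils, fell from 7.49 and 7.46 to 5.40 and 5.98, by 1.79 (adjusted p = 5.42e-07), and Col9a1 from 5.08 and 5.35 to 3.69 and 3.40, by 1.67 (adjusted p = 1.37e-07). Col9a3 was not tested. Col20a1 fell by 1.90 (adjusted p = 3.26e-09), and Col14a1, which binds type I fibrils, by 1.31. Col22a1, of tissue junctions, fell from 5.82 and 5.81 to 4.37 and 4.25, while Col19a1 was not tested. Col26a1 fell by 1.59, Col23a1, a transmembrane chain, by 1.63, Col10a1, of hypertrophic cartilage, by 1.19, and Col7a1, of the anchoring fibrils of skin, by 1.13. Adjusted p ranged from 9.15e-09 for Col23a1 to 0.000214 for Col10a1. The transmembrane chains Col13a1, Col17a1 and Col25a1 were under the filter level on all 10 arrays.

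Falls were also the commoner direction among all probe sets of like brightness, by a split chosen after the data were seen. Of the tested probe sets with a mean of 5 to 6 on the other 8 arrays, 64.7% were lower and 26.1% higher, beside 7 lower and 3 higher of 11 collagen probe sets. Between 6 and 7 it was 57.6% lower and 30.7% higher, beside 8 lower and 6 higher of 14. Below 5, where many probe sets pass through the KD mutant arrays alone, 62.7% of all were higher, beside 9 of 13 collagen probe sets.

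KD mutant against empty vector uses the same KD mutant arrays and is given beside the values above. The 7 collagen probe sets that passed the filter only through those arrays had to differ here too. There 43 of the 58 collagen probe sets changed, 21 higher and 22 lower, where 89.7% of all tested probe sets changed, 34.5% higher and 55.1% lower. Col1a2 stood 9.73 above empty vector, Col5a2 8.31, Col4a5 6.40, Col3a1 and Col8a1 5.60 each, and Col1a1 4.49. The brighter Col4a6 probe set passed here, at 0.44 (adjusted p = 0.0148), but not without empty vector replicate 1 (0.36) or KD mutant replicate 2 (0.27). That of Col5a1 did not, at 0.31 (adjusted p = 0.0543), except without KD mutant replicate 1 (0.49). Col5a3, at −0.35 (adjusted p = 0.0338), lost its call without any 1 of empty vector replicates 1 and 2 (−0.39 and −0.30) and KD mutant replicate 2 (−0.23). Col7a1 fell by 1.54 and Col9a1 by 1.93.

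In wild type against empty vector no collagen probe set changed in limma, where 0.0133% of all tested did (3 probe sets). An unadjusted p under 0.05 was found for 4 of the 44 tested, beside 1471 of all 22502 tested. The median difference was −0.01. Col7a1 read 6.53 and 6.56 with empty vector and 6.11 and 6.17 with the wild type receptor, a difference of −0.41 (SE 0.119, adjusted p = 0.491). Col3a1 read 4.77 and 4.41 against 4.98 and 5.03, a difference of 0.42 (adjusted p = 0.525), and a Col12a1 probe set 6.12 and 5.81 against 5.58 and 5.57, or −0.39 (adjusted p = 0.593). These 3 were named for having the lowest p, and none passed the adjustment. The 95% intervals of the 44 tested probe sets, each taken alone, lay between −0.688 and 1.07, which is not a joint bound. For the 7 that passed only through the KD mutant arrays all values compared here were under the filter level, so their intervals do not bound a change in RNA.

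In CD mutant against wild type no collagen probe set changed in limma, as 0% of all tested did. Of the 44 tested 2 had an unadjusted p under 0.05, beside 784 of all 22502. The differences with the lowest p were −0.23 in Col6a5 (6.47 and 6.46 in the CD mutant against 6.66 and 6.72), 0.27 in Col8a1 (6.35 and 6.26 against 6.04 and 6.03) and 0.20 in Col16a1, all at an adjusted p of 1. The intervals spanned −0.877 to 0.673. Against empty vector, where 0.111% of all changed, the CD mutant had no changed collagen probe set. It had 4 of 44 with an unadjusted p under 0.05, beside 1967 of all 22502. Col6a3 by its brighter probe set was nearest to the threshold, at 6.24 and 6.26 against 5.92 and 5.93, a difference of 0.32 (adjusted p = 0.325). Col7a1 differed by −0.34 (adjusted p = 0.417) and Col3a1 by 0.32 (adjusted p = 0.504), and the intervals spanned −0.702 to 0.919.

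In ED mutant against wild type no collagen probe set changed in limma, where 0.164% of all did. Of the 44 tested 2 had an unadjusted p under 0.05, beside 1721 of all 22502. Col6a3 differed by −0.24 (adjusted p = 0.572), Col4a4 by 0.29 (adjusted p = 0.633) and Col3a1 by −0.27 (adjusted p = 0.676). Against empty vector 0.529% of all changed and no collagen probe set did. Of the 44 tested 5 had an unadjusted p under 0.05, beside 2558 of all 22502. Col7a1 read 6.19 and 6.15 there, a difference of −0.37 (adjusted p = 0.232). Col4a4 read 6.36 and 6.24 against 5.95 and 5.90, or 0.37 (adjusted p = 0.269), and Col6a5 differed by 0.26 (adjusted p = 0.317). The intervals spanned −0.885 to 0.610 against wild type and −0.635 to 0.911 against empty vector.

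ED mutant against CD mutant, with 0.351% of all probe sets changed, gave the lowest adjusted p among collagens without the KD mutant. Col6a3 by its brighter probe set read 5.90 and 5.85 in the ED mutant and 6.24 and 6.26 with the CD mutant, a difference of −0.37 (SE 0.094, adjusted p = 0.172 in limma). Col6a5 differed by 0.30 (adjusted p = 0.341) and Col4a4 by 0.31 (adjusted p = 0.478). None of the 58 changed in limma. An unadjusted p under 0.05 was found for 3 of the 44 tested, beside 2113 of all 22502. The intervals spanned −0.733 to 0.757.

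**Figure D4:**
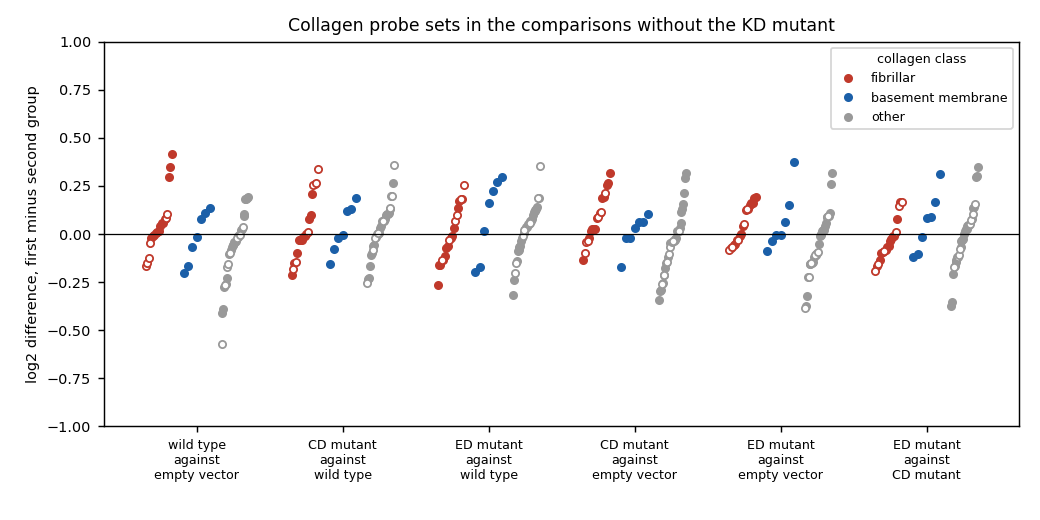
Log2 difference (y axis, first minus second group) of each of the 58 collagen probe sets in the 6 comparisons without the KD mutant (x axis), coloured by class. Filled points were tested and open points were under the filter. No point changed, and the tested ones lie between −0.41 and 0.42.

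Genes that make, export, cross-link, bind or cut collagen were read on lists of 90 genes, with 1 probe set a gene, the one brightest on average. In KD mutant against wild type the median over all named genes was −0.53. As with the collagens, a partner gene that passed the filter only through the KD mutant arrays had to differ, and such genes are named list by list. Of 18 measured genes that modify and fold the chains, 14 rose and 1 fell (median 2.48), and 12 of the rises were not fixed by the filter. Serpinh1, the collagen chaperone, stood 9.26 higher and P3h3 4.79, and both passed only through the KD mutant arrays. The prolyl hydroxylase subunits P4hb and P4ha3 rose by 4.76 and 5.32, while Crtap, a partner of prolyl 3-hydroxylase, fell by 1.83. All 5 measured cross-linking genes were called higher (median 5.42), of which Lox and Loxl2 passed only through the KD mutant arrays. Lox read 10.92 and 11.05 against 3.42 and 3.53, a difference of 7.51, and Loxl2 differed by 5.42. Of the 3 rises not fixed by the filter, Loxl1 rose by 6.15 and Loxl3 by 3.95.

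Export from the endoplasmic reticulum was divided, with 3 of 8 higher and 3 lower (median 0.03), or 2 and 2 after quantile normalization and 4 and 1 after centring. Trappc2 rose by 1.77 and the coat gene Sec13 by 0.68, and Sec24d fell by 1.32 and Sar1b by 0.50, the last not passing after centring (−0.10). The other rise, of Sec31a by 0.89, rested on KD mutant replicate 2 (6.33 and 7.81 against 6.20 and 6.17 in wild type) and was 0.15 without it. The other fall, of Mia2 at −0.33, was −0.11 after quantile normalization and 0.07 after centring, passing in neither. Of the propeptide-trimming genes 2 of 8 were measured: Pcolce, which enhances the C-proteinase, rose by 6.01 and Bmp1, that proteinase, fell by 0.61, or by 0.22 without passing after centring. Of 12 measured fibril-binding genes 7 were called higher and 1 lower (median 2.13). Of the 7, Postn (6.04), Tgfbi (4.90) and Ogn passed only through the KD mutant arrays, and among the other 4 Fn1 rose by 6.43 and Bgn by 6.18. The fibril-spacing proteoglycans Dcn and Lum were under the filter level on all arrays.

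Of 6 measured receptors 5 were called higher and 1 lower (median 1.15). Itga11, an integrin subunit for fibrillar collagen, stood 5.15 higher and the kinase receptor Ddr2 3.88, both having passed only through the KD mutant arrays. Ddr1, also a kinase receptor, was one of the other 3 and rose by 1.15, and Adgrg1 fell by 1.67. Of 8 collagen-cleaving proteases 2 were called higher and 2 lower (median −0.76): Mmp14 rose by 1.25, Mmp16, which passed only through the KD mutant arrays, stood 2.81 higher, and Mmp9 fell by 1.19 and Fap by 0.50. Of 15 measured basement membrane partners of type IV collagen 9 were called higher and 4 lower (median 1.04). Nid2, 3.76 higher, passed only through the KD mutant arrays, and among the other 8 Lamb1 rose by 2.79, Lama4 by 2.63 and Sparc by 2.03. The 89.6% of all probe sets that changed hold for these counts too, and whether a list differs from other genes was not tested.

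Outside the KD mutant 2 of the listed genes changed, neither of them with any 1 array left out. Mia2, an export receptor for large cargo, read 4.86 and 4.76 with empty vector and 5.82 and 5.61 in wild type, a rise of 0.91 (adjusted p = 0.0486) that stayed between 0.80 and 1.01 (adjusted p from 0.122 to 0.559) with an array left out. Lamb1, a laminin chain, read 5.92 and 6.14 in the ED mutant against 6.92 and 7.21 with the CD mutant, a fall by 1.03 (adjusted p = 0.0109) that ran from 0.89 to 1.18 (adjusted p from 0.055 to 0.167) with an array left out. No collagen gene changed beside them in these 2 comparisons.

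**Figure D5:**
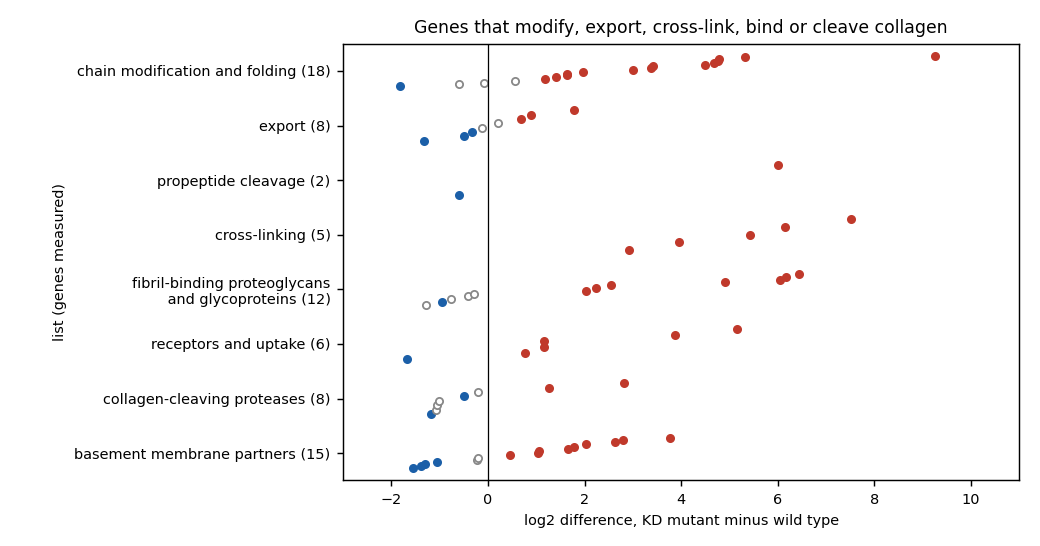
Log2 difference, KD mutant minus wild type (x axis), of genes that act on collagen, by list (y axis, with the number measured). Each point is a gene, red where higher, blue where lower, and open where it did not change or was under the filter. All 5 cross-linking genes lie between 2.91 and 7.51, and export genes lie on both sides of 0.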

How the data were processed

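Each Affymetrix rat array took 1 biotin-labelled RNA, per the labels. The authors deposited log2 RMA summaries, per the submitters' processing notes. For the version of RMA, and for joint normalization of the 10 arrays, the sources used here give nothing. RMA corrects background, equalises arrays and compresses differences at low signal. No detection calls were used, and precision is limited by having 2 arrays a group.

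The 57 control probe sets were left out. Genes were named from the platform annotation (20826 probe sets with 1 gene, 436 with several, 9780 with none), with Entrez identifiers looked up in RefSeq's GRCr8 gene table; promoters are RefSeq's, GRCr8. The test took the 22502 probe sets with 2 or more arrays at log2 4.82 or higher, which is the 40th percentile of the whole table. limma 3.58.1 in R 4.3.3 fitted 5 group means to all 10 arrays (5 residual degrees of freedom, 11.4 after moderation), with Benjamini-Hochberg adjustment over the tested probe sets and two-sided tests; the script was tested on simulated data. Collagen counts include probe sets under the filter as not changed.

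The members, classes and gene lists were chosen with earlier results of these data known. Named are the collagen genes that changed, up to 6 rises and 6 falls of each class by size with the gene's brightest probe set, their other probe sets, chains that assemble together, and the 3 genes with the lowest p where fewer than 3 changed. From each partner list up to 4 genes with the lowest adjusted p are named, and any that changed elsewhere. Dcn, Lum and Sec31a among the partners, and Col15a1 and Col18a1 as levels, were also named after their values were seen. Alternatives were no filter, the 60th percentile, quantile normalization, median centring, intensity trend with robust variance, a replicate block, 1 probe set per gene, only the 4 arrays compared, no KD mutant arrays, each array left out, an adjusted p under 0.01, and a 1.5-fold minimum. Counts of classes and partner lists under the 2 scalings, and the split by brightness, were added after seeing the data.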

Additional observations from a re-analysis of the deposited data

How the results depend on the processing

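Changing the scale moved the KD mutant comparison as a whole: the median over all probe sets, KD mutant minus wild type, was −0.564 as deposited, −0.301 after quantile normalization and −0.169 after median centring, and the collagen median −0.417, −0.0876 and −0.0225. The collagen calls against wild type numbered 42 as reported, 38 after quantile normalization (18 higher), 43 after centring (22 higher), 34 at the 60th percentile, and 41 to 44 with an array left out. Against empty vector they numbered 43 as reported, 37 after quantile normalization (18 higher), and 41 to 44 with an array left out. With 1 probe set per gene, which tests fewer features, 11 were higher against wild type and 12 against empty vector, in place of 20 and 21. Under the 2 scalings, differences that passed on one side and changed sign were, against wild type, Col5a3 (0.122), the brighter Col5a1 (−0.343, now passing) and the dimmer Col18a1 (−0.0209) after quantile normalization, and, against empty vector, Col5a3 (0.180) and the brighter Col4a1 (−0.0513) after quantile normalization and Col5a3 (0.0331) after centring. Signs also differed with another probe set of the gene against wild type, for Col12a1 (−1.34 and −0.790), Col18a1 (0.488) and Col6a3 (1.79); the cause was not tested. Col5a3 also lost its call after centring (−0.0113), without wild type replicate 1 (−0.268) and without KD mutant replicate 2 (−0.289), and the brighter Col4a1 probe set after quantile normalization (0.131). The brighter probe sets of Col5a1 and Col4a6 passed under several settings, for example at 0.702 and 0.723 after centring. In the 6 comparisons without the KD mutant, no collagen probe set changed under any alternative tried, the fit without the KD mutant arrays included, which tested 36. Same-numbered arrays shared little deviation (correlations of deviations −0.0287 to 0.143). The labels do not say whether the replicate numbers pair the samples, and these correlations cannot settle it. With the replicate block 43 collagen probe sets of the KD mutant changed against wild type and 44 against empty vector. Signal under log2 4.82 limits what can be said of the 14 probe sets never above it.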
